A study of Mus musculus with 12 samples.

Results

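Interferon-stimulated genes were read across a microarray study of cultured mouse fibro/adipogenic progenitors (FAPs), the mesenchymal cells of skeletal muscle that can form fibroblasts and adipocytes. The set was a list of 41 genes known to respond to interferon. A gene was taken from the transcript clusters that the platform annotation names with its symbol alone, and the brightest cluster by mean over the 12 arrays was used. This gave 38 of the 41 genes, out of 19938 genes and 21789 clusters with 1 symbol. The clusters of Isg15 and Gbp2 carry several symbols and Ifi44 is not listed in the annotation, so these 3 were not analysed here. Irf1 had 2 clusters and the other 37 genes had 1.

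FAPs came from uninjured hindlimbs of male wild-type C57/Bl6 mice of 8 to 12 weeks, and each biological replicate pooled cells of 2 mice. After 2.5 days of growth, cells were transfected for 48 hours with 10 µM of an AMO, an antisense oligonucleotide, and then again for 48 hours with 10 µM AMO with or without the growth factor PDGF-AA, at a dose the labels give as 50 uM. The 6 groups of 2 arrays combined 3 AMOs with the absence or presence of PDGF-AA. The pA AMO was directed at the intronic polyadenylation site of the PDGF receptor gene Pdgfra, for which one label field has a plural (AMOs). The 5'ss AMO was directed at an intronic 5' splice site of the same gene. The control AMO is described only as a control. All 6 groups were transfected, and no untransfected group was used here, so the level before transfection is not known from these arrays.

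Type I interferons bind a receptor that activates the kinases Jak1 and Tyk2. A complex that holds Stat2 and Irf9 then binds the interferon-stimulated response element of target genes, and the targets include sensors of foreign nucleic acid, antiviral effectors and Irf7, which drives further interferon production. Genes induced by interferon gamma often carry another element, the gamma-activated sequence. Fibroblasts and other mesenchymal cells express both receptors, and nucleic acids in the cytosol or endosome are a known trigger of the pathway.

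Values were log2 expression on Affymetrix Mouse Gene 1.0 ST arrays, and the medians of the 12 arrays lay between 6.04 and 6.23. FAP and fibroblast markers, including Pdgfra at 12.72 to 12.92, had a list mean of 11.54 to 11.69 in the arrays (9 genes). Over 11 macrophage and leukocyte markers the list mean lay between 5.72 and 5.97. Its members ran from Adgre1 at 3.89 to 4.51 up to Cd68 at 7.08 to 7.44, with Ptprc at 4.75 to 5.35, Csf1r at 5.55 to 5.88, Cd14 at 6.55 to 7.06 and Lyz2 at 5.86 to 7.48. The list mean over 4 markers of plasmacytoid dendritic cells, professional interferon producers, lay between 6.39 and 6.62, with Tcf4 at 9.78 to 10.04 far above Siglech, Irf8 and Ccr9, which lay between 4.28 and 6.18. That of 6 endothelial markers lay between 6.07 and 6.31, and that of 8 myogenic markers between 6.73 and 7.86, with Acta1 at 9.16 to 11.05 and Des at 7.24 to 9.08 among them. In these bulk samples, fewer cells of a type and less RNA per cell cannot be told apart.

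Promoter sequences are shown for the members described array by array whose window held the response element core, since that element mediates much of the type I interferon response. RefSeq windows of GRCm38.p6, from 250 bases before to 50 bases after a start, were given for 29 of the 38 genes. The core was searched as GAAA, any 2 bases and GAAA again, on both strands. It was present in the windows of 12 of the 29 members, or 41.4%, against 3.99% of all 27025 genes with a window. The gamma-activated sequence, searched as TTCNNNGAA on both strands, was present in 8 of the 29, or 27.6%, against 9.55% of all genes. A match describes the letters only and is not a measured binding site. In the 4 stretches, all on the plus strand, capitals mark the matches, and matches read TTTC first where the core lies on the other strand.
Ddx60: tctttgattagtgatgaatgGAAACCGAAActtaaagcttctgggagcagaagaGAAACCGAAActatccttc
Gbp3: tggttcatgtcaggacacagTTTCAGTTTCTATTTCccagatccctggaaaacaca
Stat2: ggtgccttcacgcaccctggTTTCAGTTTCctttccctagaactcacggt
Ifit1: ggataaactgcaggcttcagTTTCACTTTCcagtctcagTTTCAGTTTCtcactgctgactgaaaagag

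The stretch of Ddx60, an RNA helicase gene linked to RNA sensing, is chr8:61928014-61928086 and holds 2 matches, which begin 53 and 19 bases before the start. That of Gbp3, a guanylate-binding GTPase, is chr3:142559979-142560034 and holds 2 overlapping matches at 45 and 39 bases before the start. The Stat2 stretch, chr10:128270256-128270305, has 1 match 222 bases before the start. The Ifit1 stretch, chr19:34640765-34640833, has 2 matches at 104 and 85 bases before the start. Windows were not given for Mx1, Mx2, Oas2, Dhx58, Usp18, Zbp1, Parp9, Parp14 and Rtp4.

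The 38 genes varied together over the arrays, and the 2 arrays of a group often stood far apart. Their range from the lowest to the highest array had a median of 1.11 on the log2 scale, against 0.46 for all clusters, and 98.6% of all clusters had a range under 1.11. By role, the median range was 2.04 for 9 direct antiviral effectors, 1.18 for 5 oligoadenylate synthetases, 1.11 for 6 sensors and editors, and 0.98 for 7 genes of ISG15, ubiquitin and ADP-ribose enzymes. It was 0.79 for 3 antigen processing genes and 0.59 for 4 transcription factors.

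Each array was summarised by the median deviation of the 38 genes from their own 12-array means, in log2 units. With the control AMO it was 0.07 and 0.17 in replicates 1 and 2, and 0.24 and -0.02 with PDGF-AA added. With the pA AMO it was 0.05 and -0.07, and 0.51 and 0.03 with PDGF-AA. With the 5'ss AMO it was -0.46 and -0.18, and -0.41 and 0.03 with PDGF-AA. Replicate 1 of pA AMO plus PDGF-AA thus stood highest, and both 5'ss AMO arrays of replicate 1 stood lowest. All 38 genes were above their own mean in the first, and 0 of 38 in either of the latter. The same array of pA AMO with PDGF-AA gave the highest value of 31 of the 38 genes. The replicate 1 arrays of 5'ss AMO without and with PDGF-AA gave the lowest value of 21 and 13 genes.

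**Figure D1:**
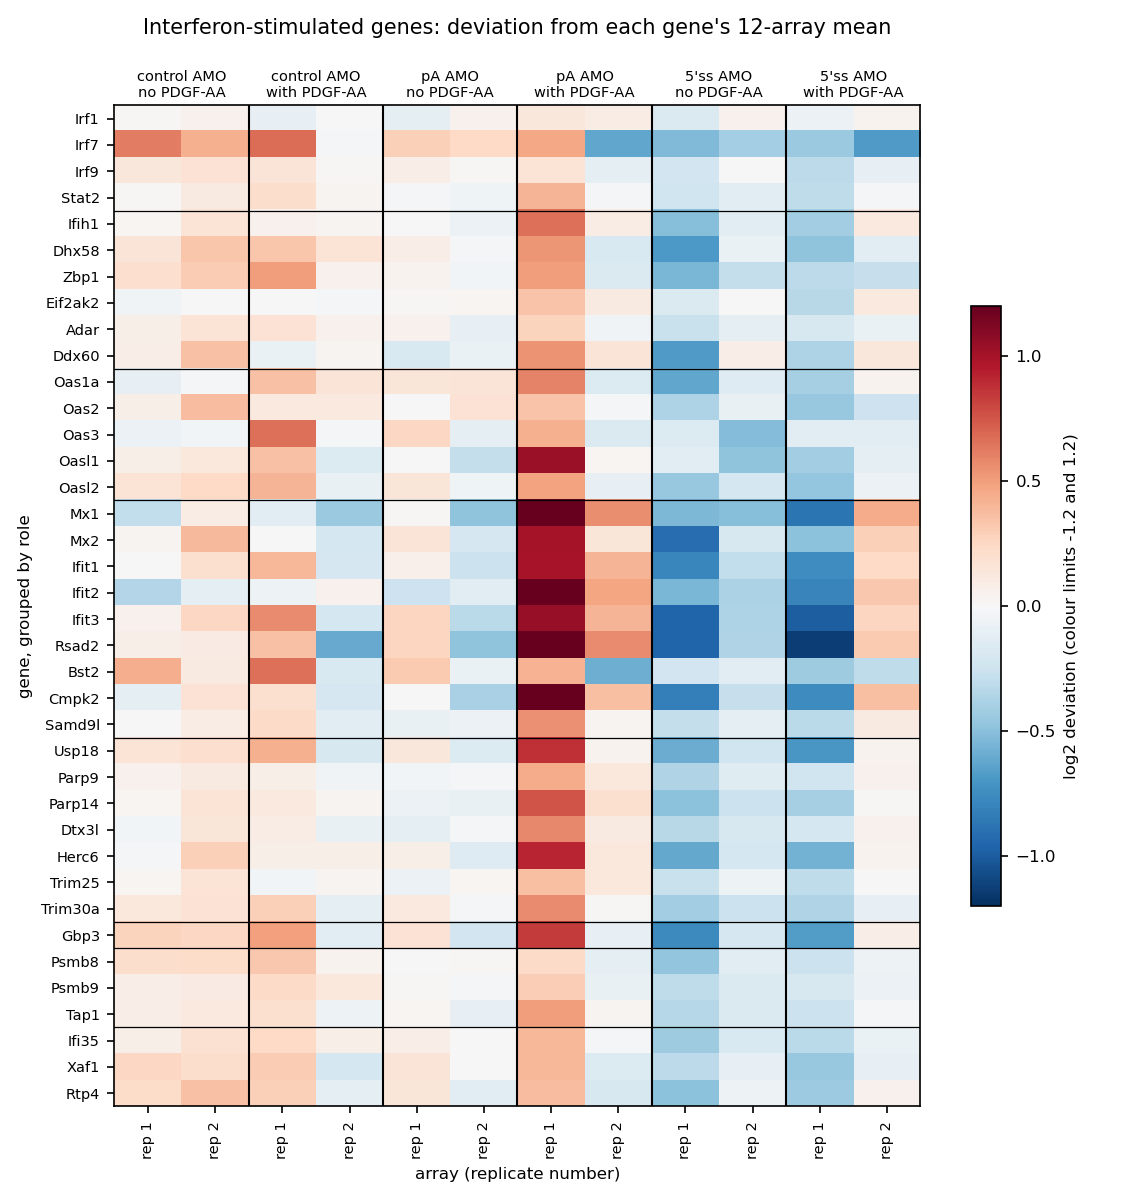
Log2 deviation of each of the 38 interferon-stimulated genes (rows, grouped by role) from its own mean over 12 arrays, for every array (columns, by AMO, PDGF-AA and replicate number). The column of replicate 1 of pA AMO plus PDGF-AA is above the mean in 38 of 38 genes, and both replicate 1 columns of the 5'ss AMO are above it in 0 of 38.

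Ranked by group mean, the 5'ss AMO without PDGF-AA was lowest for 32 genes and the 5'ss AMO with PDGF-AA for the other 6. The highest group mean was that of pA AMO with PDGF-AA for 25 genes, of the control AMO for 8 and of the control AMO with PDGF-AA for 5. The median over genes of the group mean's deviation was -0.32, -0.20, -0.02, 0.09, 0.11 and 0.26 in the order 5'ss AMO, 5'ss AMO with PDGF-AA, pA AMO, control AMO with PDGF-AA, control AMO, and pA AMO with PDGF-AA. In this order each group overlapped with its neighbours in the array medians just given.

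In the values that follow, the first number of a pair is replicate 1 and the second replicate 2. Irf7 stood at 11.45 and 11.26 with the control AMO, 11.51 and 10.81 with PDGF-AA added, 11.12 and 11.07 with the pA AMO, 11.30 and 10.21 with PDGF-AA added, 10.31 and 10.43 with the 5'ss AMO, and 10.39 and 10.16 with PDGF-AA added. This transcription factor, which drives type I interferon genes, was lower in all 4 arrays of the 5'ss AMO than in all 4 of the control AMO. The array of replicate 2 of pA AMO plus PDGF-AA was as low as those of the 5'ss AMO. Stat2 stood at 11.19 and 11.28 with the control AMO, 11.39 and 11.21 with PDGF-AA added, 11.16 and 11.12 with the pA AMO, 11.58 and 11.15 with PDGF-AA added, 10.94 and 11.05 with the 5'ss AMO, and 10.87 and 11.16 with PDGF-AA added. For this subunit of the complex that binds the response element, the control and 5'ss AMO arrays did not overlap, but they lay close, with replicate 2 of 5'ss AMO plus PDGF-AA just under the lowest control array. Irf1 stood at 8.53 and 8.57 with the control AMO, 8.42 and 8.52 with PDGF-AA added, 8.41 and 8.57 with the pA AMO, 8.65 and 8.61 with PDGF-AA added, 8.34 and 8.57 with the 5'ss AMO, and 8.45 and 8.56 with PDGF-AA added. The range of this factor, a target of interferon gamma, was narrow, the AMOs overlapped, and the highest arrays were both of pA AMO with PDGF-AA. Irf9, the DNA-binding partner of Stat2, lay between 8.15 and 8.64.

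**Figure D2:**
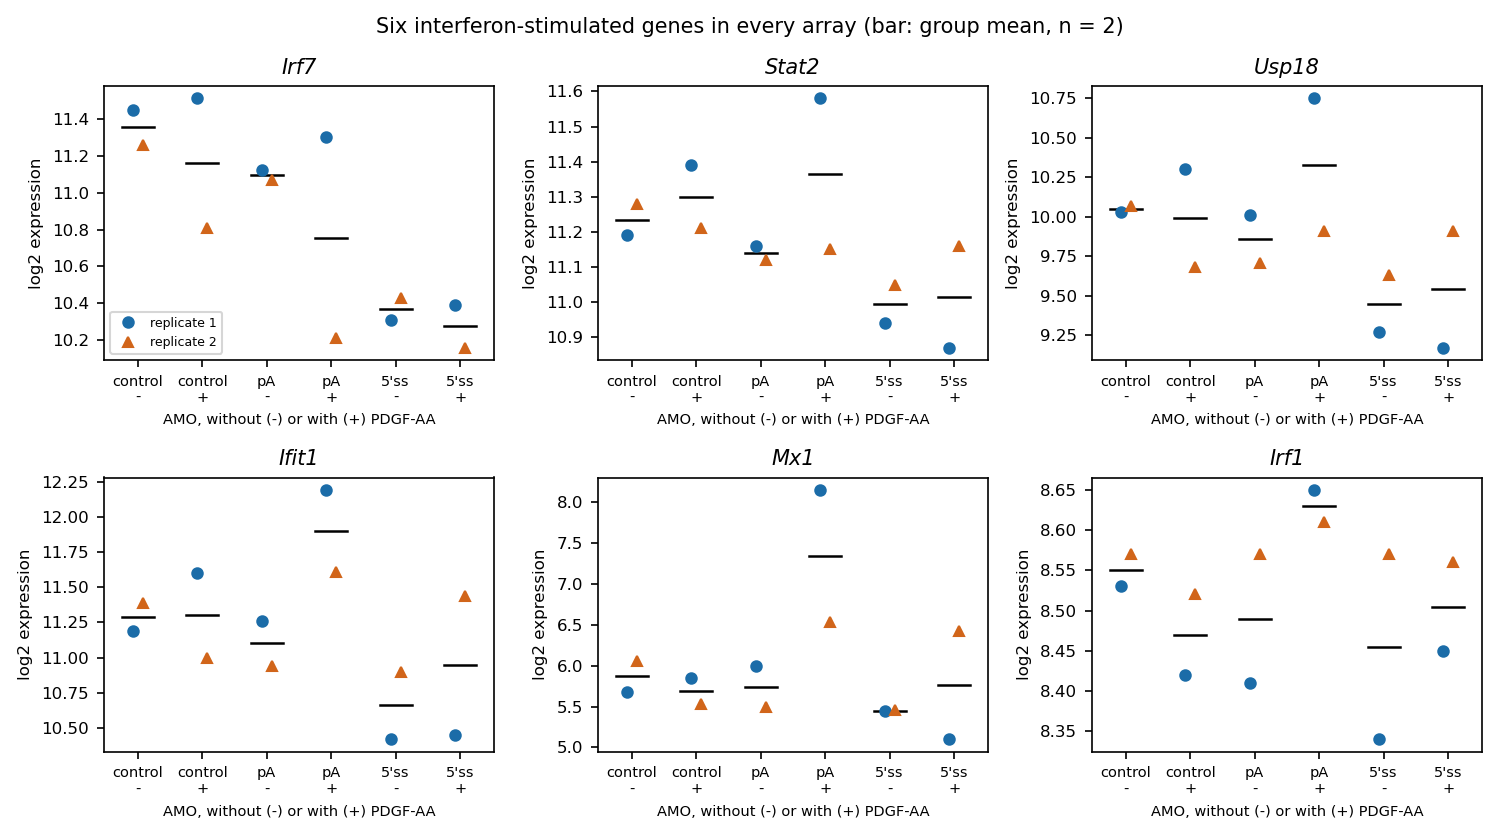
Log2 expression of 6 interferon-stimulated genes in each of the 12 arrays (circles, replicate 1; triangles, replicate 2; bars, mean of the 2 arrays of a group), by AMO without and with PDGF-AA. The 4 arrays of the 5'ss AMO lie under the 4 of the control AMO for Irf7 and Stat2, and the array of replicate 1 of pA AMO plus PDGF-AA stands highest for Stat2, Usp18, Ifit1, Mx1 and Irf1.

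Ddx60 and Adar stood at the wide and narrow ends of the ranges of sensors and editors. Ddx60 stood at 7.34 and 7.61 with the control AMO, 7.18 and 7.29 with PDGF-AA added, 7.07 and 7.18 with the pA AMO, 7.80 and 7.41 with PDGF-AA added, 6.58 and 7.34 with the 5'ss AMO, and 6.89 and 7.39 with PDGF-AA added. The lowest values were the replicate 1 arrays of the 5'ss AMO, while its replicate 2 arrays lay among the control arrays. Adar stood at 8.91 and 9.00 with the control AMO, 9.01 and 8.89 with PDGF-AA added, 8.89 and 8.74 with the pA AMO, 9.11 and 8.80 with PDGF-AA added, 8.57 and 8.73 with the 5'ss AMO, and 8.65 and 8.76 with PDGF-AA added. This enzyme, which edits adenosine in double-stranded RNA, was lower in all 4 arrays of the 5'ss AMO than in the 4 of the control AMO. The RNA sensors Ifih1 and Dhx58, the nucleic acid sensor Zbp1 and the RNA-activated kinase Eif2ak2 completed the group.

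Oligoadenylate synthetases make short oligoadenylates that activate RNase L, an RNA-degrading enzyme. Oasl1 stood at 8.15 and 8.20 with the control AMO, 8.43 and 7.91 with PDGF-AA added, 8.07 and 7.79 with the pA AMO, 9.11 and 8.10 with PDGF-AA added, 7.94 and 7.59 with the 5'ss AMO, and 7.66 and 7.97 with PDGF-AA added. Oasl1, a synthetase-like protein, was highest in the array of replicate 1 of pA AMO plus PDGF-AA, and the control and 5'ss AMO arrays overlapped. Oas2 stood at 8.90 and 9.20 with the control AMO, 8.95 and 8.95 with PDGF-AA added, 8.84 and 9.01 with the pA AMO, 9.17 and 8.81 with PDGF-AA added, 8.46 and 8.74 with the 5'ss AMO, and 8.38 and 8.58 with PDGF-AA added. Every 5'ss AMO array of Oas2 was lower than every control AMO array and every pA AMO array.

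Direct antiviral effectors had the widest ranges by role. Mx1 stood at 5.68 and 6.06 with the control AMO, 5.85 and 5.53 with PDGF-AA added, 5.99 and 5.49 with the pA AMO, 8.15 and 6.53 with PDGF-AA added, 5.44 and 5.46 with the 5'ss AMO, and 5.10 and 6.42 with PDGF-AA added. Mx1, which encodes a dynamin-like GTPase known for antiviral activity but disrupted by a deletion in C57BL/6 and many other inbred mice, was highest in the 2 arrays of pA AMO with PDGF-AA. The next array was replicate 2 of 5'ss AMO plus PDGF-AA, whose partner array was the lowest of the 12. Ifit1 stood at 11.19 and 11.39 with the control AMO, 11.60 and 11.00 with PDGF-AA added, 11.26 and 10.94 with the pA AMO, 12.19 and 11.61 with PDGF-AA added, 10.42 and 10.90 with the 5'ss AMO, and 10.45 and 11.44 with PDGF-AA added. Ifit1 binds foreign RNA by its cap, and its 2 highest values were again both arrays of pA AMO with PDGF-AA. The array of replicate 2 of 5'ss AMO plus PDGF-AA stood among the higher control arrays and apart from the other 5'ss AMO arrays. Samd9l stood at 9.33 and 9.42 with the control AMO, 9.56 and 9.20 with PDGF-AA added, 9.24 and 9.26 with the pA AMO, 9.88 and 9.36 with PDGF-AA added, 9.04 and 9.21 with the 5'ss AMO, and 9.01 and 9.44 with PDGF-AA added. Samd9l, which restricts poxviruses, was highest in replicate 1 of pA AMO plus PDGF-AA and lowest in both replicate 1 arrays of the 5'ss AMO.

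Usp18 removes the ubiquitin-like protein ISG15 from its targets and dampens the interferon receptor. Usp18 stood at 10.03 and 10.07 with the control AMO, 10.30 and 9.68 with PDGF-AA added, 10.01 and 9.71 with the pA AMO, 10.75 and 9.91 with PDGF-AA added, 9.27 and 9.63 with the 5'ss AMO, and 9.17 and 9.91 with PDGF-AA added. It was lowest in both replicate 1 arrays of the 5'ss AMO and highest in replicate 1 of pA AMO plus PDGF-AA. Trim25 stood at 9.31 and 9.45 with the control AMO, 9.25 and 9.32 with PDGF-AA added, 9.21 and 9.31 with the pA AMO, 9.65 and 9.41 with PDGF-AA added, 9.02 and 9.22 with the 5'ss AMO, and 8.98 and 9.29 with PDGF-AA added. For Trim25, a ubiquitin ligase that acts on RNA sensing, 1 array of the 5'ss AMO, replicate 2 with PDGF-AA, lay above the lowest control array. Gbp3 stood at 9.69 and 9.67 with the control AMO, 9.91 and 9.29 with PDGF-AA added, 9.59 and 9.19 with the pA AMO, 10.26 and 9.32 with PDGF-AA added, 8.66 and 9.22 with the 5'ss AMO, and 8.75 and 9.50 with PDGF-AA added. The replicate 1 arrays of Gbp3 were far apart between AMOs, while its replicate 2 arrays lay between 9.19 and 9.67.

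Antigen processing genes supply peptides for MHC class I. Tap1 stood at 9.43 and 9.47 with the control AMO, 9.54 and 9.29 with PDGF-AA added, 9.37 and 9.25 with the pA AMO, 9.85 and 9.38 with PDGF-AA added, 9.01 and 9.18 with the 5'ss AMO, and 9.09 and 9.33 with PDGF-AA added. Tap1, a subunit of the peptide transporter, was lowest in both replicate 1 arrays of the 5'ss AMO. Psmb9 stood at 8.40 and 8.42 with the control AMO, 8.55 and 8.45 with PDGF-AA added, 8.33 and 8.30 with the pA AMO, 8.61 and 8.23 with PDGF-AA added, 8.01 and 8.15 with the 5'ss AMO, and 8.13 and 8.25 with PDGF-AA added. For Psmb9, a subunit of the immunoproteasome, the 5'ss and control AMO arrays did not overlap. Ifi35 stood at 8.95 and 9.07 with the control AMO, 9.12 and 8.95 with PDGF-AA added, 8.96 and 8.88 with the pA AMO, 9.28 and 8.87 with PDGF-AA added, 8.46 and 8.70 with the 5'ss AMO, and 8.56 and 8.80 with PDGF-AA added. Ifi35, an interferon-induced leucine zipper protein, was lower in all 4 arrays of the 5'ss AMO than in the other 8. Rtp4 stood at 9.84 and 9.97 with the control AMO, 9.91 and 9.51 with PDGF-AA added, 9.77 and 9.50 with the pA AMO, 9.99 and 9.43 with PDGF-AA added, 9.13 and 9.56 with the 5'ss AMO, and 9.19 and 9.67 with PDGF-AA added. In Rtp4, a receptor transporter protein, the replicate 2 arrays of the 5'ss AMO lay above the lowest control array.

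With the 5'ss AMO, every one of the 38 genes had a lower mean than with the control AMO when both PDGF-AA conditions were averaged (8 arrays), and none passed the test. The limma log2 differences lay between -0.93 for Irf7 and -0.03 for Irf1, with a median of -0.38. Over all 21789 clusters the median was -0.01 and 53.4% were below 0. No member and no other cluster had a Benjamini-Hochberg adjusted p under 0.05, a share of 0%. The lowest adjusted p of a member was 0.684, and 0.135 with the replicate number as a block, where 3 clusters outside the list, 0.0138%, passed. With the replicate block, 23 members were lower at an unadjusted limma p under 0.05, against 1486 of all 21789 clusters, and 0 were higher. Without the block 22 members were lower, against 603 of all clusters, or 2.77%, and 0 were higher. Leaving out replicate 1 of the 5'ss AMO brought this count of 22 to 11, and leaving out its replicate 1 with PDGF-AA to 9. For the control AMO it was 11 when replicate 1 with PDGF-AA was omitted and 12 when replicate 2 without PDGF-AA was.

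The 4 arrays of the 5'ss AMO lay wholly below the 4 of the control AMO for 12 members, against 1.71% of all clusters. These were Irf7, Irf9, Stat2, Zbp1, Dhx58, Adar, Oas2, Oas3, Psmb8, Psmb9, Parp14 and Ifi35. The count was 28 without replicate 2 of 5'ss AMO plus PDGF-AA and 22 without replicate 2 of control AMO plus PDGF-AA. It was 12 or 13 without any other single array of these AMOs. With an array left out, the share of all clusters was not computed. Irf7 had a log2 difference of -0.93 (SE 0.217, 4 arrays against 4, limma unadjusted p = 0.00152). It was -1.13 within replicate 1 and -0.74 within replicate 2. Zbp1, the sensor of nucleic acids in the Z form, was at -0.63 (SE 0.148), with -0.79 and -0.46 within replicates. Dhx58, a regulator of RNA sensing, was at -0.59 (SE 0.171), with -0.82 and -0.36. Oas2 was at -0.46 (SE 0.113), with -0.51 and -0.42, nearly alike in both replicates.

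Among the direct antiviral effectors the median was -0.84 within replicate 1 and 0.00 within replicate 2. Ifit3, a partner of Ifit1, was at -0.68 (SE 0.291), with -1.28 within replicate 1 and -0.07 within replicate 2. Rsad2, the antiviral enzyme viperin, was at -0.51 (SE 0.374) and had opposite signs, with -1.25 and 0.23. The GTPase gene Gbp3 was at -0.61 (SE 0.244), with -1.09 and -0.12. Over all members the median was -0.53 within replicate 1 and -0.13 within replicate 2. Both replicates were below 0 for 31 of 38, against 31.6% of all clusters. The macrophage and leukocyte list had a median of -0.05 in this comparison, with 9 of 11 below 0 and Lyz2 highest at 0.56, and the plasmacytoid dendritic cell list a median of -0.06. The FAP and fibroblast list had a median of -0.02. The part of these in the result was not tested.

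**Figure D3:**
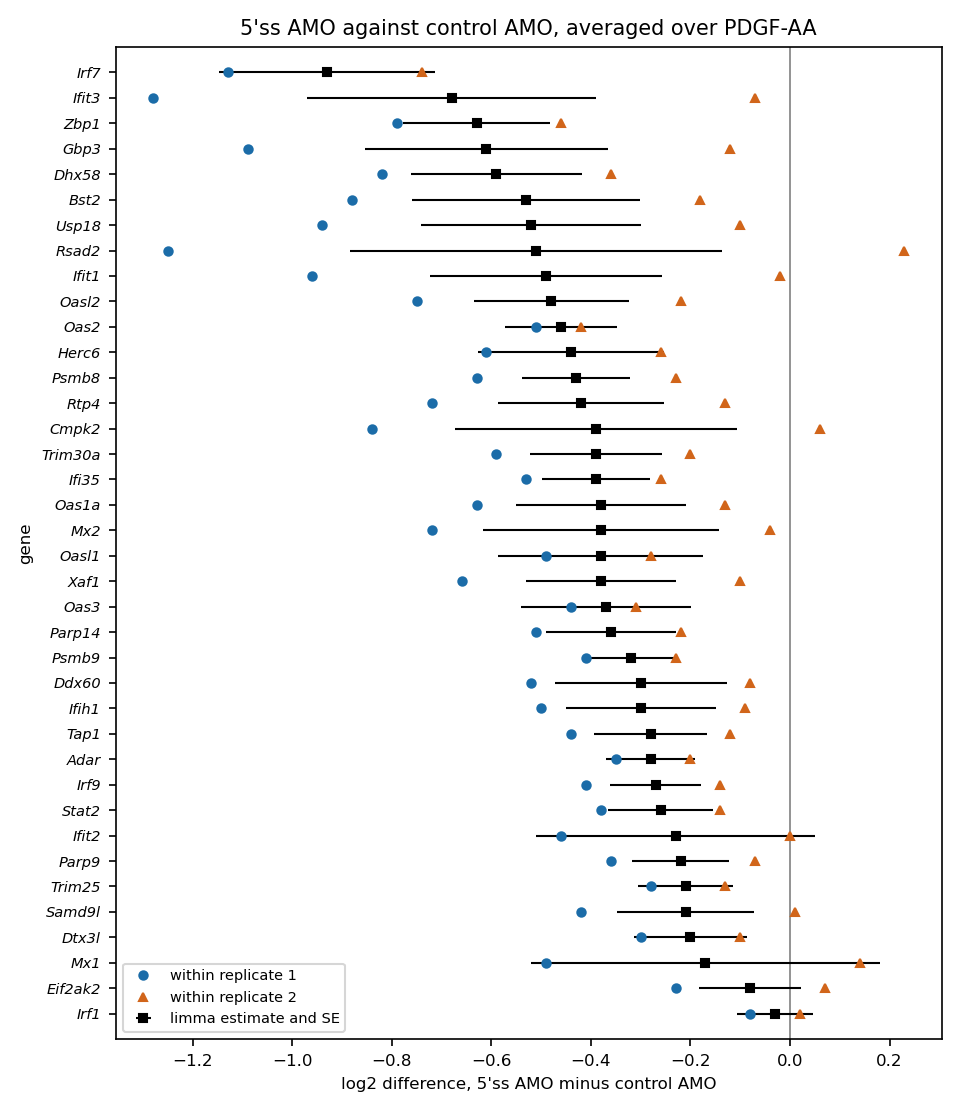
Log2 difference of each of the 38 interferon-stimulated genes between the 5'ss and control AMO, averaged over PDGF-AA (squares with bars: limma estimate and its SE, 4 arrays against 4; circles and triangles: the difference within replicate 1 and replicate 2). All 38 estimates lie left of 0, the replicate 1 differences have a median of -0.53 and those of replicate 2 a median of -0.13.

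Taken by PDGF-AA condition, the difference without PDGF-AA had a median of -0.44, with 38 of 38 below 0, against 49% of all clusters, and medians of -0.53 and -0.39 within replicates 1 and 2. The 2 arrays of the 5'ss AMO lay below the 2 of the control AMO for 35 members, against 11.1% of all clusters. With PDGF-AA the median was -0.30, with 35 of 38 below 0, against 55.6% of all clusters, and medians of -0.64 and 0.04 within replicates. Here 15 members did not overlap, against 17.7% of all clusters. Whether the AMO difference itself changed with PDGF-AA is the contrast of PDGF-AA effects given further on, in which 0 clusters passed.

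Between the pA and the 5'ss AMO, which both target Pdgfra, all 38 genes had a higher mean with the pA AMO and 0 passed the test. No cluster passed in limma without the replicate block (0%), and 0.0275% of clusters, none of them a member, passed with it. The median difference was 0.41, against 0.00 for all clusters, of which 49.5% were above 0. It was 0.71 within replicate 1 and 0.06 within replicate 2, and both were above 0 for 30 members, against 27% of all clusters. Without replicate 1 of pA AMO plus PDGF-AA the median was 0.26. Effectors had a median of 0.73, with Rsad2 at 1.09 (SE 0.374) and Mx1 at 0.94 (SE 0.350). Within replicates 1 and 2 Rsad2 was at 2.10 and 0.07, and Mx1 at 1.80 and 0.07, so that the difference lay almost wholly in replicate 1. Irf7 was at 0.60 (SE 0.217), with 0.86 and 0.35, and Irf1 was lowest at 0.08 (SE 0.077). The 8 myogenic markers were also all higher with the pA AMO, with a median of 0.19. Their median was 0.28 within replicate 1 and -0.02 within replicate 2, and their part in the result was not tested. This comparison uses the same 5'ss AMO arrays as the one with the control AMO and is not independent of it.

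With the replicate block, 31 members were higher with the pA AMO at an unadjusted limma p under 0.05, against 843 of all 21789 clusters. Without the block 30 members were higher, against 361 of all clusters, or 1.66%. The count was 5 without replicate 1 of pA AMO plus PDGF-AA, 6 without replicate 1 of 5'ss AMO plus PDGF-AA, 12 without replicate 1 of 5'ss AMO and 13 without replicate 1 of pA AMO. Arrays did not overlap for 4 members, against 0.996% of all clusters, namely Zbp1, Oas2, Trim30a and Ifi35. That count was 22 without replicate 2 of 5'ss AMO plus PDGF-AA, 14 without replicate 2 of pA AMO plus PDGF-AA and 10 without replicate 2 of pA AMO. It was 4 or 5 without any other single array of the pA or 5'ss AMO. The share of all clusters was not computed at these settings.

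Between the pA and the control AMO the 38 genes were divided. The median was 0.05, with 22 above and 16 below 0, while 45.1% of all clusters were above 0. In limma 0 members and 0% of all clusters passed the test. No member had an unadjusted p under 0.05, against 1.36% of all clusters higher and 1.89% lower. The median was 0.13 within replicate 1, where 32 members were above 0, and -0.09 within replicate 2, where 28 were below 0. With PDGF-AA arrays left out singly, it was -0.09 without replicate 1 and 0.15 without replicate 2 of the pA AMO, and 0.11 and -0.03 likewise for the control AMO. Without replicate 1 of either AMO lacking PDGF-AA it was 0.02 (pA) and 0.03 (control). Mx1 was highest at 0.76 (SE 0.350) and Irf7 lowest at -0.33 (SE 0.217). Without PDGF-AA 34 members were below 0, against 50.1% of all clusters, with a median of -0.14. With PDGF-AA 29 were above 0, against 44.1%, with a median of 0.20.

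PDGF-AA was compared within each AMO, 2 arrays against 2. With the pA AMO, 6 antiviral effectors (Mx1, Ifit2, Rsad2, Cmpk2, Ifit1 and Ifit3) had the highest differences among the members, and neither a member nor any other cluster passed the test (0%). The median over the 38 genes was 0.26, against -0.01 for all clusters. Above 0 were 35 members, against 47.4% of all clusters. Mx1 was at 1.60 (SE 0.495), with 2.15 within replicate 1 and 1.04 within replicate 2. It was the dimmest member, with a 12-array mean of 5.97. Its pA AMO arrays without PDGF-AA, at 5.99 and 5.49, lay under the lowest array median of 6.04. Ifit2, an RNA-binding relative of Ifit1, was at 1.33 (SE 0.397), with 2.04 and 0.62. Rsad2 was at 1.32 (SE 0.529), with 1.60 and 1.05. Cmpk2, a nucleotide kinase encoded beside Rsad2, was at 1.10 (SE 0.402), with 1.46 and 0.74. Both replicates of these 4 were thus above 0.

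By role, the 9 effectors had the highest median, 0.80, with Bst2 below 0. They had medians of 0.93 and 0.67 within replicates 1 and 2. The ISG15, ubiquitin and ADP-ribose enzymes had 0.69 and 0.14, the sensors and editors 0.45 and 0.07, the oligoadenylate synthetases 0.34 and -0.06, and the antigen processing genes 0.29 and -0.07. The 3 members below 0 were Irf7 at -0.34 (SE 0.307), with 0.18 and -0.85, Bst2 at -0.20 (SE 0.324), with 0.10 and -0.51, and Irf9 at -0.02 (SE 0.129). Bst2 encodes tetherin, which holds budding virions at the cell surface.

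Over all members the medians were 0.45 and 0.09 within replicates 1 and 2. Within replicate 1 all 38 were above 0, within replicate 2 24 were, and these 24 were above 0 in both, against 24.2% of all clusters. The arrays with PDGF-AA lay above those without for 18 members, against 11.4% of all clusters. At an unadjusted limma p under 0.05, 9 were higher without the replicate block, against 255 of all 21789 clusters, or 1.17%. With the block 11 were higher, against 571 of all clusters, and the lowest adjusted p of a member was 0.705. Without replicate 1 of pA AMO plus PDGF-AA the median was 0.06, with 21 above and 17 below 0, and 0 members were higher at an unadjusted p under 0.05. Without replicate 2 of that group the median was 0.49, and 38 were above 0. The counts at an unadjusted p under 0.05 were then 22, and 2 without replicate 2 of pA AMO and 6 without replicate 1 of pA AMO. The 8 myogenic markers were all below 0 in this comparison, with a median of -0.52, and their part in the result was not tested.

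**Figure D4:**
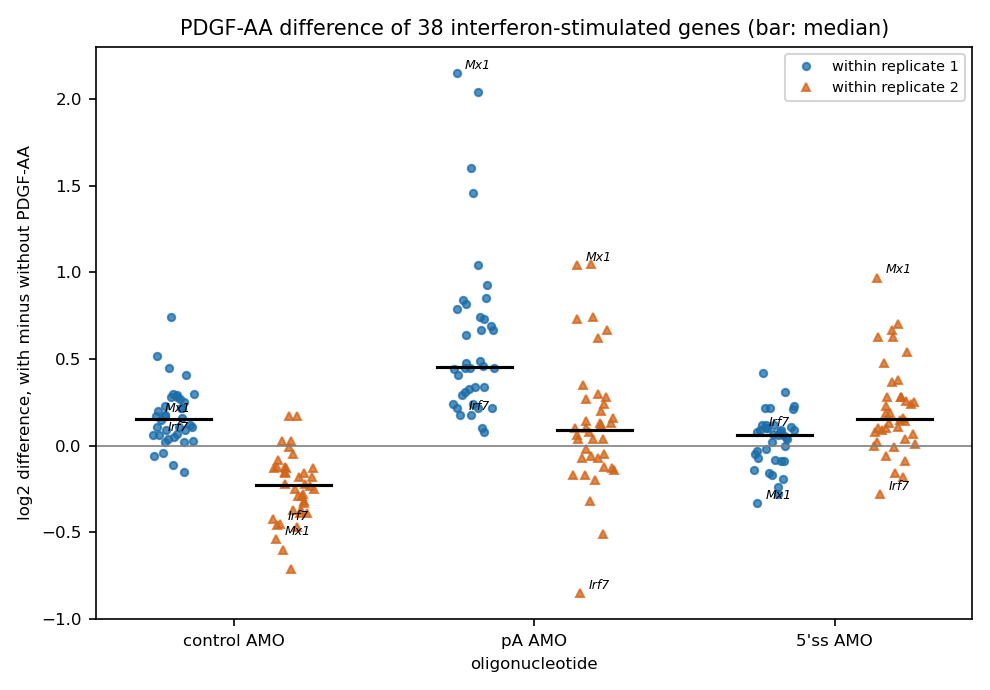
Log2 difference with minus without PDGF-AA for each of the 38 interferon-stimulated genes, by AMO and within each replicate number (circles, replicate 1; triangles, replicate 2; bars, median; Mx1 and Irf7 are named; points are spread sideways for view). Medians are 0.16 and -0.23 with the control AMO, 0.45 and 0.09 with the pA AMO, and 0.06 and 0.16 with the 5'ss AMO.

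With the control AMO the replicates pointed in opposite ways for 30 of the 38 members. In limma 0 members passed the test, as did 0% of all clusters, and 0 had an unadjusted p under 0.05, against 3.07% of all clusters higher and 1.74% lower. With the replicate block 1 member, Oas3, was higher at an unadjusted p under 0.05 (0.0453 in limma), against 7.6% of all clusters. The median was 0.16 within replicate 1 and -0.23 within replicate 2, and -0.04 from the fit, with 12 members above and 26 below 0, against 46.7% of all clusters below. It was 0.11 without replicate 2 of control AMO plus PDGF-AA, 0.02 without replicate 2 of control AMO, -0.17 without replicate 1 of control AMO plus PDGF-AA and -0.08 without replicate 1 of control AMO. Oas3, a long oligoadenylate synthetase, was highest at 0.38 (SE 0.242), with 0.74 and 0.03. Mx2 was lowest at -0.32 (SE 0.336), with -0.04 and -0.60. Arrays lay higher with PDGF-AA for 4 members, against 17.5% of all clusters, and lower for 3 (Mx2, Ddx60 and Irf1), against 13.6%.

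With the 5'ss AMO the median was 0.11, with 32 members above 0, against 48% of all clusters, and medians of 0.06 and 0.16 within replicates. It was -0.11 without replicate 2 of 5'ss AMO plus PDGF-AA, -0.03 without replicate 1 of 5'ss AMO, and 0.25 without either other array. Mx2 was highest at 0.45 (SE 0.336), with 0.42 and 0.48, and Bst2 lowest at -0.19 (SE 0.324), with -0.19 and -0.18. Mx1 had opposite signs, with -0.33 and 0.97. In limma 0% of clusters passed the test, and 0 members had an unadjusted p under 0.05, against 0.808% of all clusters higher and 0.835% lower.

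Averaged over the 3 AMOs, the PDGF-AA difference had a median of 0.13, with 32 members above 0, against 50.8% of all clusters. In limma 0 members and 0% of clusters passed the test, and with the replicate block 0.0964% of clusters, none of them a member, had an adjusted p under 0.05. The median was 0.04 without replicate 1 of pA AMO plus PDGF-AA, and between 0.07 and 0.08 without replicate 2 of 5'ss AMO plus PDGF-AA, replicate 1 of 5'ss AMO or replicate 1 of control AMO plus PDGF-AA. Without replicate 2 of pA AMO plus PDGF-AA it was 0.21. Medians within replicates 1 and 2 were 0.27 and 0.02. Ifit2 was at 0.60 (SE 0.229, limma unadjusted p = 0.0259), with 0.70 and 0.50, and had the highest difference of all 21789 clusters. Most of this lay in the pA AMO, where the Ifit2 group mean was 7.82 without and 9.15 with PDGF-AA. It was 7.78 and 8.01 with the control AMO, and 7.55 and 7.78 with the 5'ss AMO. Of all clusters, 1.73% were higher with PDGF-AA at an unadjusted p under 0.05. Mx1 was at 0.58 (SE 0.286). Irf7 was lowest at -0.21 (SE 0.177), with 0.11 and -0.53.

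The 3 differences between these PDGF-AA effects were tested in the same limma fit, and 0 clusters passed in any (0%). The effect with the pA AMO minus that with the control AMO had a median of 0.33 over the members, with 34 above 0, against 47.8% of all clusters, and medians of 0.32 and 0.29 within replicates 1 and 2. Both replicates were above 0 for 32 members, against 22.2% of all clusters. The median was 0.09 without replicate 1 of pA AMO plus PDGF-AA, 0.18 without replicate 2 of control AMO plus PDGF-AA and 0.54 without replicate 2 of pA AMO plus PDGF-AA. Mx1 was at 1.78 (SE 0.701), with 1.98 and 1.58, and Rsad2 at 1.54 (SE 0.748), with 1.32 and 1.75. Adjusted p in limma was 1.00 for both, and 0.561 and 0.611 with the replicate block. The 8 myogenic markers were all below 0 in this contrast, with a median of -0.55, and their part was not tested.

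The 5'ss AMO minus the control AMO had a median of 0.12, with -0.10 and 0.38 within replicates. The pA AMO minus the 5'ss AMO had a median of 0.19, with 0.42 and -0.08. At an unadjusted limma p under 0.05 1 member (Mx1) was higher in the first of the 3 contrasts, against 0.652% of all clusters. With the replicate block Ddx60 was added, for 2 members against 2.61%. Without the block 0 passed in the other two. The 3 contrasts share arrays and are not independent of one another. With single arrays left out, the 5'ss minus control median ran from -0.09 without replicate 2 of 5'ss AMO plus PDGF-AA to 0.29 without replicate 1 of that group. It was -0.02 and 0.28 without replicates 2 and 1 of control AMO plus PDGF-AA, and 0.01 and 0.24 without replicates 1 and 2 of 5'ss AMO alone. The pA minus 5'ss median ran from -0.04 without replicate 1 of pA AMO plus PDGF-AA to 0.42 without its replicate 2. It was 0.01 and 0.33 without replicates 1 and 2 of 5'ss AMO plus PDGF-AA, and 0.31 and 0.05 without those of 5'ss AMO alone.

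Replicate number itself had no common direction among the 38 genes, although 7013 of all clusters, 32.2%, passed the test between replicates 2 and 1 with the groups in the model. Only Oas3 passed among the members, with a log2 difference of -0.32 (SE 0.095, adjusted p = 0.0315 in limma). Bst2 was at -0.39 (SE 0.145, adjusted p = 0.0648) and Irf7 at -0.36 (SE 0.140, adjusted p = 0.0774). The count of members that passed was 0 without either array of the pA AMO or of the control AMO with PDGF-AA, 2 without either array of pA AMO with PDGF-AA, and 3 without either array of 5'ss AMO with PDGF-AA. The member median was -0.01. Within groups it was 0.09 with the control AMO, -0.09 with the pA AMO and 0.23 with the 5'ss AMO. With PDGF-AA added it was -0.23, -0.57 and 0.34 in the same order. Replicate 2 was below replicate 1 for 38 of 38 members in pA AMO with PDGF-AA and for 2 of 38 in either 5'ss AMO group. No member had 1 direction in all 6 groups, against 14% of all clusters that were lower and 17% that were higher in all 6.

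The members resembled one another over the 12 arrays, which share their processing and normalization. Pearson's r between a member and the mean of the others ranged from 0.56 to 0.99, with a median of 0.91. Tap1 and Usp18 had 0.99, and Irf1 (0.56), Irf7 (0.61), Bst2 (0.62) and Oas3 (0.65) had the lowest values. Among 703 pairs of members the median r was 0.82, and 2 pairs were under 0. Of the 50 clusters outside the list with the highest r to the member mean, 30 belonged to lists of other interferon pathway genes, with r of 0.88 to 0.98 over the 50. Ddx58, the RNA sensor RIG-I, came first, followed by Parp12, Gbp7, Slfn8 and Tor3a. The lists held 16 ligands, 13 receptor and signal transduction genes, 17 sensors and adaptors and 63 further interferon-stimulated genes, out of 19938 genes. Ddx58 and Tlr3 are on both the list of sensors and adaptors and the list of further interferon-stimulated genes. The lists were chosen with earlier results of these data known.

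Most interferon genes had signals under the array medians, and no background level was used here to tell which were expressed. Over 16 ligands, values lay between 2.59 and 8.00, and Ifnb1, interferon beta, lay between 4.54 and 5.02. In the comparison of the 5'ss with the control AMO the ligands had a median of -0.07, with 5 above and 11 below 0 and Ifna12 lowest at -0.33. The 13 receptor and signal transduction genes had a median of 0.00, and 17 nucleic acid sensors and adaptors -0.10, with Ddx58 lowest at -0.36 (SE 0.136). None of these lists had a member that passed the test.

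A further 63 interferon-stimulated genes, kept apart from the 38, had a median of -0.26 in this comparison, with 61 below 0 and medians of -0.39 and -0.09 within replicates 1 and 2. Arrays of the 5'ss AMO lay below those of the control AMO for 14 of the 63, against 1.71% of all clusters. Ccl5 stood at 9.14 and 9.19 with the control AMO, 9.09 and 8.88 with PDGF-AA added, 8.68 and 8.97 with the pA AMO, 8.47 and 8.27 with PDGF-AA added, 8.28 and 8.61 with the 5'ss AMO, and 8.19 and 8.01 with PDGF-AA added. The chemokine Ccl5 was lower in every 5'ss AMO array than in every control AMO array, at -0.80 (SE 0.106, limma adjusted p = 0.0988, and 0.0798 with the replicate block), with -0.88 and -0.72 within replicates. Its adjusted p was the lowest of all 21789 clusters in this comparison without the block. Cxcl9, a chemokine induced by interferon gamma, was lowest at -0.95 (SE 0.411), with -1.74 and -0.15. Ifi27 was highest at 0.24 (SE 0.164).

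For PDGF-AA with the pA AMO the same 63 genes had a median of 0.26, with 53 above 0 and none past the test. Within replicates 1 and 2 their median was 0.49 and 0.06. Cxcl10 stood at 7.80 and 7.93 with the control AMO, 7.61 and 7.18 with PDGF-AA added, 7.95 and 7.53 with the pA AMO, 10.61 and 8.33 with PDGF-AA added, 7.08 and 7.65 with the 5'ss AMO, and 6.93 and 8.38 with PDGF-AA added. Cxcl10, a chemokine that attracts T cells, was highest of all 21789 clusters at 1.73 (SE 0.632), with 2.66 and 0.80, and both arrays of pA AMO with PDGF-AA were above those without. Ifi27l2a was lowest at -0.95 (SE 0.247), with -0.54 and -1.36, and Ccl5 was at -0.45 (SE 0.149). Among sensors the endosomal RNA receptor Tlr3 was highest at 0.50 (SE 0.212). The 16 ligands had a median of -0.03, with 3 above 0.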

How the data were processed

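Gene expression was measured in 12 samples of cultured mouse FAPs, 2 for each of 6 groups. The deposited values are log2 expression per transcript cluster, which the authors computed by RMA (Affymetrix Expression Console, version not given), according to the submitters' processing notes. RMA normalizes the arrays together, so a difference is relative to the other genes. The genome build behind the probe sets is not given in the sources used here. Precision is limited by how many arrays there are.

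The platform annotation names 21789 of 35556 clusters with 1 symbol, 1621 with several and does not list 12146. All 38 member symbols equal the RefSeq symbol of their gene identifier. In limma 3.58.1 (R 4.3.3), 1 mean per group was fitted to the 21789 clusters over 12 arrays with 6 residual degrees of freedom, two-sided, with Benjamini-Hochberg adjustment over the 21789 and a threshold of 0.05. The fit was tested on simulated data in which arrays varied independently. That simulation did not hold the shared deviations of same-numbered arrays given below. SE is the moderated standard error. Within-replicate differences use arrays of 1 number.

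Replicate numbers were checked for pairing. Deviations from the group means correlated at 0.20 to 0.61 between same-numbered arrays in 15 of 15 pairs of groups, so the numbers were taken as pairs, although no label says what a number shares. Values with the replicate block are printed where they alter a printed call or a printed count of members. Other shares of all clusters at an unadjusted p are those without the block, and more clusters had such a p with it.

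The members, their roles and the lists were chosen with earlier results of these data known. Members given array by array are those with the widest and the narrowest range in each role, with Irf7, Stat2 and Ifit1 added; Isg15 was also on that list. Genes outside the members are mostly named where they are at an end of their list. Ccl5 was at neither end of its list in the comparisons that name it. It is given for its adjusted p, the lowest of all clusters for the 5'ss against the control AMO without the block. Alternatives were the block, omission of each array, centring on the median, a second quantile normalization, moderation with trend and robust settings, dim clusters filtered out, and the fit over unnamed clusters too.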

Additional observations from a re-analysis of the deposited data

Results flagged for a closer look

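Among the 38 members, 6 results were picked out because the PDGF-AA difference was above 0 in both replicates with one AMO and below 0 in both with another. The share of all clusters that met this rule was not computed, so the count of 6 does not set the members apart. For PDGF-AA within 1 AMO, 22.8% to 30.9% of all clusters were above 0 in both replicates. Below 0 in both were 24.9% to 27.6%. Groups of 2 arrays were too small to be checked for outlying arrays. Mx2 had PDGF-AA differences of 0.84 and 0.35 within replicates 1 and 2 with the pA AMO, 0.42 and 0.48 with the 5'ss AMO and -0.04 and -0.60 with the control AMO. It thus differed from the control AMO by 0.92 with the pA AMO and by 0.77 with the 5'ss AMO. Ddx60 had PDGF-AA differences of 0.73 and 0.24 within replicates 1 and 2 with the pA AMO and of -0.15 and -0.32 with the control AMO, a difference of 0.72 between the AMOs. With the 5'ss AMO its differences were 0.31 and 0.04, a difference of 0.42 from the control AMO. Trim25 was at 0.44 and 0.10 with the pA AMO and at -0.06 and -0.13 with the control AMO, a difference of 0.36. Irf1 was at 0.24 and 0.04 with the pA AMO and at -0.11 and -0.05 with the control AMO, a difference of 0.22. The contrasts of PDGF-AA effects test these differences, and limma's adjusted p was 1.00 for all 6. With the replicate block it was 0.632 and 0.719 for Mx2, 0.568 and 0.770 for Ddx60, 0.588 for Trim25 and 0.632 for Irf1.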

How the results depend on the processing

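In the 10 comparisons of AMO and PDGF-AA, 0 of the 38 members had an adjusted p under 0.05 under any alternative, the replicate block included. With the replicate block the clusters passing were 21 for PDGF-AA averaged over the AMOs, 3 for the 5'ss against the control AMO and 6 for the pA against the 5'ss AMO, against 0 without it. With trend and robust moderation they were 39, 7 and 2, and 13 for PDGF-AA with the control AMO. The member median of the PDGF-AA effect with the pA AMO minus that with the control AMO was 0.28 after repeated quantile normalization and 0.40 after median centring, against 0.33. Between the replicate numbers, members passing were 2 with the dim clusters filtered out, 0 over all clusters, 0 after repeated quantile normalization and 3 after median centring, against 1, and quantile normalization left 2809 clusters, against 7013. The AMO differences by PDGF-AA condition were chosen after seeing the data, and without PDGF-AA the pA against control median was -0.14, against 0.05. The cause of these shifts was not tested. With each array left out in turn, the member median for PDGF-AA ranged from -0.11 to 0.25 with the 5'ss AMO, and its pA minus control difference from 0.09 to 0.54. Clusters passing ranged from 0 to 1 for the 5'ss against the control AMO and from 3392 to 6657 between replicate numbers, where 0 to 3 members passed.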
